A study of Bos taurus with 8 samples.

Results

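The bovine microRNAs (miRNAs) that carry a number from 1200 to 1999 in their name were examined in the mammary gland of dairy and beef heifers. They were chosen by this number alone, whatever letter, arm or database version follows it, and 45 of the 763 miRNA names on the array belong to the range. No signal entered the choice of names, but the range itself was proposed with breed results from these same arrays in view. The counts and p-values by breed are therefore a description of these arrays and not independent support. Of the 45 names, 42 carry no version suffix and 3 are older database sequences (miR-1300a_v13.0, miR-1300b_v13.0 and miR-1839_v18.0). Together they cover 35 different numbers, and the 45 names also form 45 rows of the deposited value table.

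Total RNA with its small RNA came from mammary gland tissue of 8 non-pregnant heifers, 4 Holstein-Friesian (HF, a dairy breed) and 4 Limousin (LIM, a beef breed). One Agilent array with a single dye was used per animal, and by their labels the 4 samples of each breed are biological replicates. All animals were healthy and without clinical mastitis, have no treatment named in their labels, and were 20 months old by their characteristics, whereas the protocol gives 2 years. The samples are pieces of whole gland from animals that had not calved, so a change in the number of cells of one type cannot be told apart from a change in miRNA per cell. Differences are Limousin minus Holstein-Friesian, since the design takes Holstein-Friesian as its reference.

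A miRNA is cut from a hairpin precursor, usually by DROSHA with DGCR8 in the nucleus and by DICER in the cytoplasm, and either the 5′ or the 3′ arm of the hairpin can be kept as the mature strand that guides Argonaute to messenger RNAs. Numbers were handed out in order of registration, so the range does not form a family. It joins mirtrons, whose hairpins are released by splicing of short introns, fragments of other small RNAs, and miRNAs within unrelated genes. In the mammary gland, miRNAs are studied for their part in ductal growth, differentiation of the milk-secreting epithelium and involution.

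The probes are printed because their base composition enters the results that follow. A probe of this array is complementary to the 3′ part of its miRNA, and most miRNAs have a pair of probes that differ by 1 base at the inner end. The longest probe is given for the 15 miRNAs of the range that could be tested between breeds, 5′ to 3′, with capitals for the bases that it adds to the shortest probe of the same miRNA.
miR-1224: ctccacctccC
miR-1225-3p: ctgggggcggC
miR-1246: cctgctccaaaaatcC
miR-1247-3p: gctccagtcccgA
miR-1249: tgaagaagggggggA
miR-1260b: tggtggcagtggtG
miR-1271: tgagtacttactaggtgcC
miR-1343-5p: cccgcccgggG
miR-1434-3p: cctcagaccttagatttC
miR-1584-5p: tgcccccagccC
miR-1777a: cccgccccccA
miR-1777b: ccccgcccccC
miR-1835: cagccccagctctC
miR-1839_v18.0: caagacctgttctatctAC
miR-1940: agactcagccttcttagT

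Many of these probes are short and made largely of G and C. Values are those of the probe whose mean signal was highest for the miRNA, and so are the GC contents and lengths that follow. Across the 45 names the median GC content was 57.1% (18.2% to 100%) and the median length 14 bases, against 50% and 16 bases for the other 718 names. The probes of miR-1343-5p, miR-1777a and miR-1777b hold G and C alone. The 10-base probe of miR-1777a lies whole within the 11-base probe of miR-1777b, so the signals of these miRNAs are not separate measurements. In the array annotation, which uses UMD 3.1, 79 of the 93 probes of the range map to 1 place. Their mapped span is 1 base shorter than the probe itself. The probes of miR-1343-5p, miR-1434-3p and miR-1584-5p have no single mapped place. The genes given for these miRNAs below rest on the RefSeq gene name alone.

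**Figure D1:**
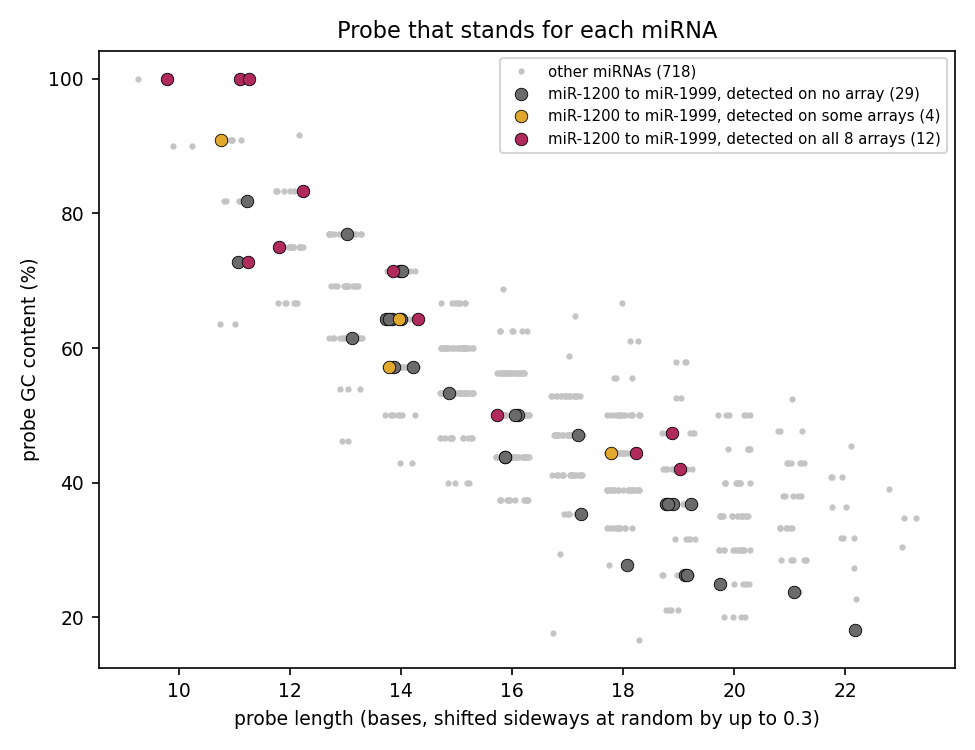
Probe GC content (%) against probe length (bases) for the probe that stands for each miRNA; grey dots are the 718 other miRNAs and large circles the 45 of the range, coloured by detection. The 12 detected on all 8 arrays have a median GC content of 72.1% and a median length of 13 bases, and the 29 detected on none have 50% and 16 bases.

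The arrays held 45780 spots of 1657 probes each. Between 28.6% and 35.5% of the spots were well above background, none was saturated, and 2.67% to 3.73% were marked as outliers and left out of the signals. All 8 arrays lay on 1 slide with 1 scan time, with the Holstein-Friesian samples at slide index 1 and the Limousin samples at index 2, so the position on the slide and the breed cannot be told apart. Limousin arrays were brighter: the 75th percentile of the probes detected on every array was 557 to 939 intensity units in Holstein-Friesian and 943 to 1579 in Limousin. Signals were divided by this percentile, which removes that difference in brightness. All 6 epithelial markers chosen for this work (miR-200a, miR-200b, miR-200c, miR-141, miR-429 and miR-205) were detected on all 8 arrays. The log2 of their summed scaled signals was 14.1 to 14.3 in Holstein-Friesian and 14.2 to 14.3 in Limousin.

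Most miRNAs of the range were not seen in this tissue. A miRNA counted as detected on an array where over 50% of the spots of any of its probes were well above background. By this measure 12 of the 45 were detected on all 8 arrays, 4 on some arrays and 29 on none. The detected share was 35.6%, against 39.6% (284 of 718) of the other names. Names with lower numbers were detected more often (57.8% of 346) and names with higher numbers less often (20.7% of 363), as a description with no test.

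Detection within the range went with GC content. Below 50% GC, 4 of 18 were detected on at least 1 array (22.2%), against 109 of 336 other names (32.4%). From 50% to below 65% GC it was 4 of 14 (28.6%), against 123 of 281 (43.8%). At 65% GC or more, 8 of 13 were detected (61.5%), against 52 of 101 (51.5%). The rise with GC content was thus present in both sets, and whether base composition has a part in which miRNAs were detected was not tested.

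The number of miRNAs of the range detected per array was 14, 12, 15 and 13 in Holstein-Friesian replicates 1 to 4 and 15, 16, 15 and 15 in Limousin. Holstein-Friesian replicate 3 reached the count of 3 Limousin arrays, and the other 3 Holstein-Friesian arrays lay below all 4. The mean difference was 1.75 (exact permutation test, two-sided, p = 0.114, where the smallest p that 4 against 4 allows is 0.0286). Without Holstein-Friesian replicate 3 it was 2.25. That array alone of its breed reached the Limousin counts. Leaving it out therefore fixed the exact permutation p at 0.0286, the smallest that 7 arrays can give, and is no support for a difference. Where any single spot above background counted as detection, Holstein-Friesian arrays had 19 to 24 and Limousin arrays 26 to 28, without overlap, a difference of 5.5 (exact permutation p = 0.0286). Over all names, Holstein-Friesian arrays detected 243 to 267 and Limousin arrays 272 to 297.

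**Figure D2:**
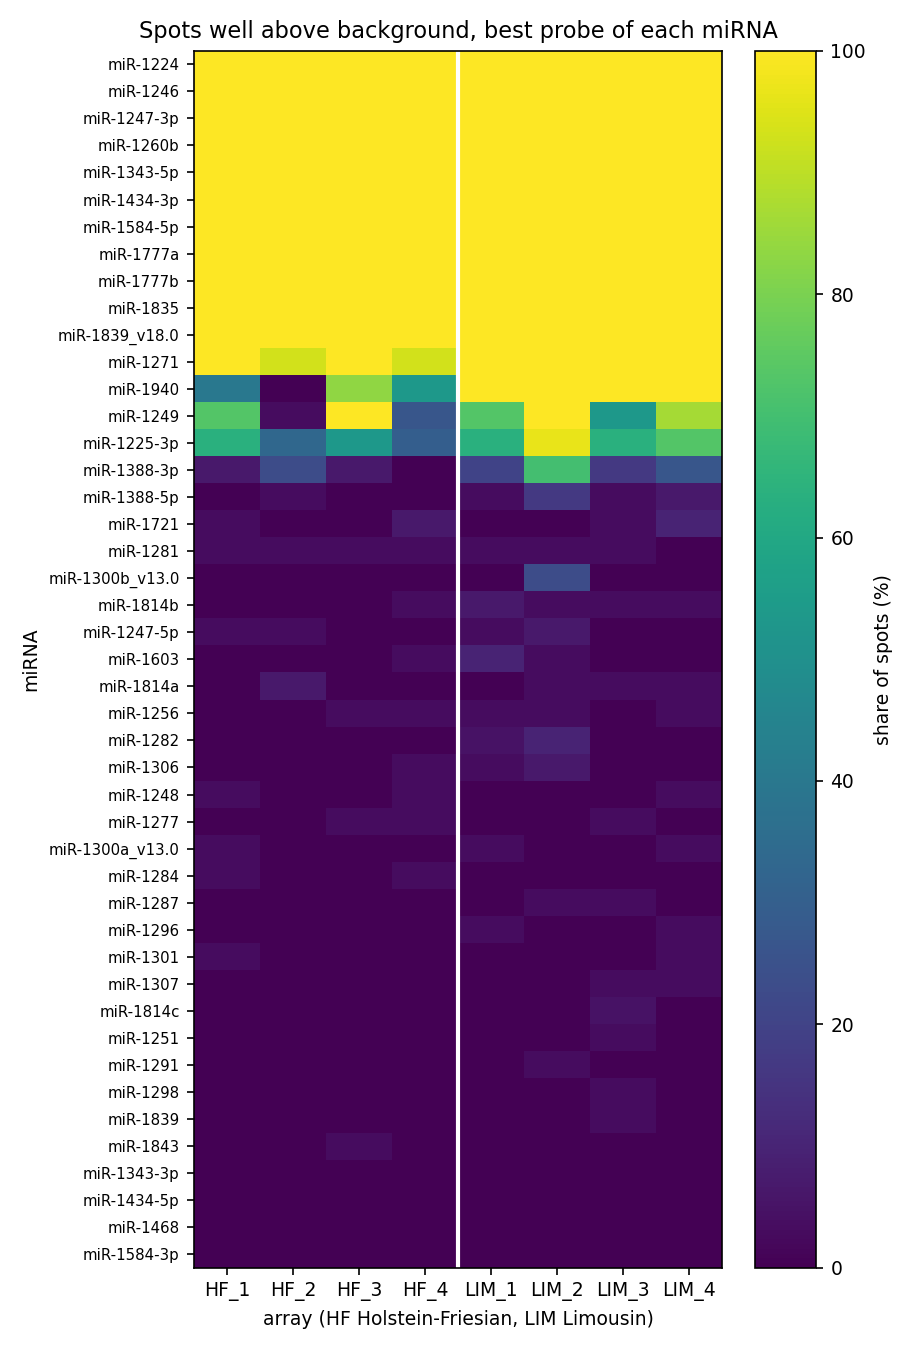
Share of spots well above background (%, colour) for the probe with the highest share of each of the 45 miRNAs (rows) on each of the 8 arrays (columns). A block of 11 miRNAs reaches 100% on every array, miR-1271 follows closely, 4 change from array to array, and the 29 detected nowhere stay at or under 23.3%.

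The 29 miRNAs that were detected nowhere include several that sit in well-known genes. Here and below, gene spans come from RefSeq's ARS-UCD2.0 annotation. In it, 42 of the 45 names matched a miRNA gene and 28 lay inside the span of a protein-coding gene. Exon, intron and strand were not resolved. miR-1306, in DGCR8, whose product is the partner of DROSHA, was not detected. Nor were miR-1301 (in DNMT3A, a DNA methyltransferase), miR-1284 (in FOXP1, a transcription factor) and miR-1296 (in JMJD1C). The others were miR-1247-5p, miR-1248, miR-1251, miR-1256, miR-1277, miR-1281, miR-1282, miR-1287, miR-1291, miR-1298, miR-1300a_v13.0, miR-1300b_v13.0, miR-1307, miR-1343-3p, miR-1388-5p, miR-1434-5p, miR-1468, miR-1584-3p, miR-1603, miR-1721, miR-1814a, miR-1814b, miR-1814c, miR-1839 and miR-1843. For 27 of the 29, the share of spots above background stayed under 11% on every array. The highest share, 23.3%, was that of miR-1300b_v13.0 on Limousin replicate 2.

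Where a hairpin had both arms on the array, only one was seen. This was so for all 5 such hairpins of the range: the 3p arm alone for miR-1247, miR-1388 and miR-1434, and the 5p arm alone for miR-1343 and miR-1584. The miR-1388-3p arm was detected on 1 array only. Before scaling, the signals of 2 undetected arms stayed near 0, between -2.53 and -0.05 intensity units for miR-1247-5p and between -1.34 and 0.73 for miR-1434-5p. miR-1343-3p reached 3.16, miR-1584-3p 3.28 and miR-1388-5p 13.7. The detected arm miR-1388-3p reached no more than 19.6, so the arms of miR-1388 lay close to each other. Among the other 68 hairpins with both arms on the array, both were detected for 16, the 3p arm alone for 13, the 5p arm alone for 11 and neither for 28. The 5 hairpins are too few for a statement that the range differs.

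By breed, each tested miRNA of the range was lower in Limousin or did not pass the test when arrays were scaled to the percentile of the detected probes; with the percentile over all probes miR-1271 and miR-1940 passed as higher, and with quantile scaling miR-1940 did. The test was limma with a threshold of 0.05 on the adjusted p. It covered the 270 miRNAs that 1 breed or both showed on each of its 4 arrays. miR-1225-3p, miR-1249 and miR-1940 entered through Limousin alone, so a call of miR-1940 as higher in Limousin is no support for a difference. In all, 15 of the 45 were tested. Of these 15, 9 passed (60%) and all 9 were lower in Limousin, by 1.49-fold to 2.82-fold, although 5 of the 9 had the opposite sign without scaling. Over all 270, 41.9% passed: 13.7% were higher and 28.1% lower in Limousin. The median log2 difference was -0.64 for the 15 and -0.07 for the 270. Names numbered above the range had a similar makeup: of 58 tested, 37 passed, all 37 lower in Limousin, with a median of -0.70. Of the 188 tested names numbered below it, 35 were higher and 30 lower. Signals of the 4 arrays of one breed did not overlap those of the other for 4 of the 15, against 36.7% of the 270. The 6 that did not pass were miR-1260b, miR-1271, miR-1343-5p, miR-1777a, miR-1839_v18.0 and miR-1940.

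**Figure D3:**
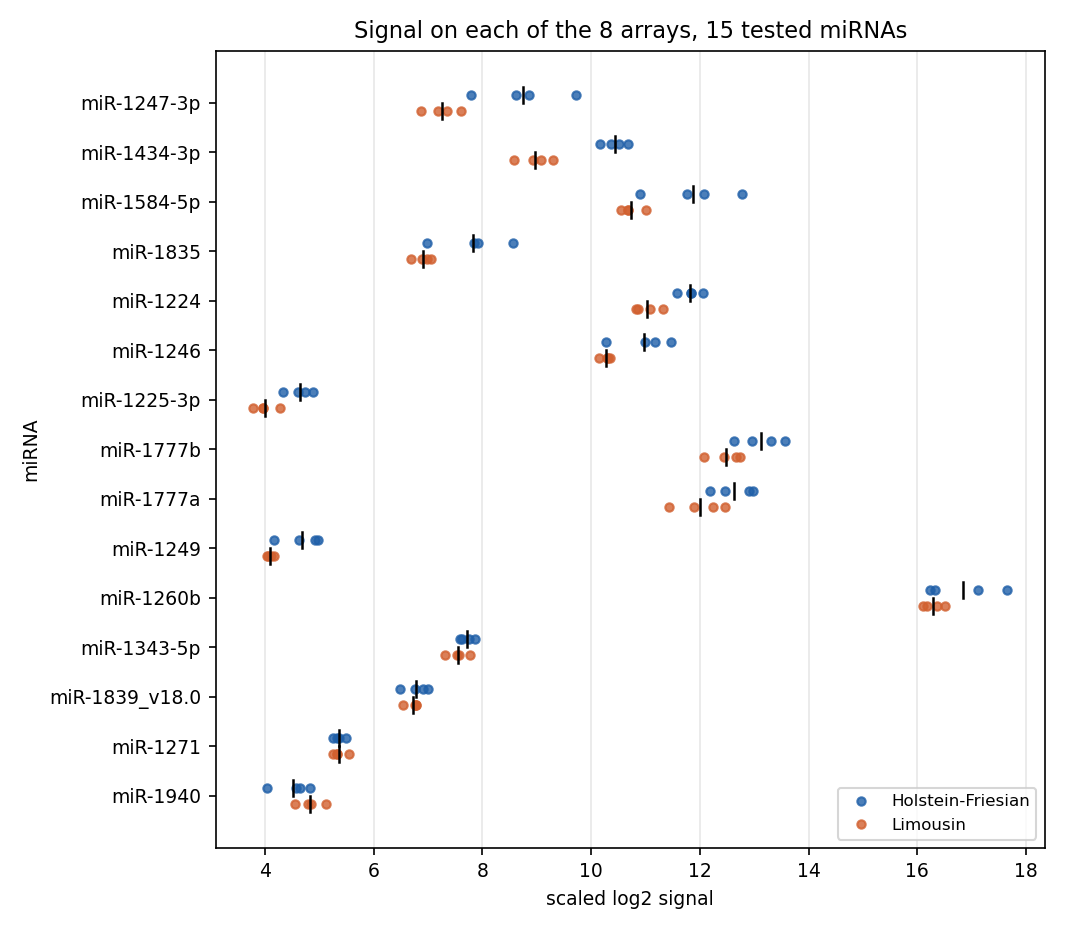
Scaled log2 signal of each of the 8 arrays (points) and the mean of each breed (black bars) for the 15 tested miRNAs; Holstein-Friesian in blue and Limousin in orange. The points of the breeds do not overlap for miR-1224, miR-1225-3p, miR-1247-3p and miR-1434-3p, with Limousin lower, a direction that miR-1224 and miR-1225-3p do not keep without scaling; levels of different miRNAs are not comparable, since their probes differ.

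Both miRNAs of the range that were chosen for this work as mirtrons passed. Whether others of the range are mirtrons was not examined. miR-1224 (probe at chr1:83546873-83546882) lies within VWA5B2. Its scaled log2 signal was 12.05, 11.83, 11.57 and 11.83 in Holstein-Friesian replicates 1 to 4 and 10.85, 11.09, 11.31 and 10.82 in Limousin. Every Holstein-Friesian array was above every Limousin array, with means of 11.82 ± 0.20 and 11.02 ± 0.23 (SD, n = 4 each). The difference was -0.80 (SE 0.15, limma adjusted p = 0.0036), which is 1.74-fold lower in Limousin (95% confidence interval 1.39 to 2.19). It passed without each array in turn, but was 0.05 without scaling (limma adjusted p = 0.883).

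miR-1225-3p (probe at chr25:1628530-1628539), within PKD1, which encodes polycystin-1, was near the detection limit. Scaled log2 signals were 4.88, 4.73, 4.33 and 4.61 in Holstein-Friesian and 3.95, 3.78, 4.28 and 3.95 in Limousin. The breeds did not overlap, but Holstein-Friesian replicate 3 and Limousin replicate 3 lay close together. It was detected on 2 of 4 Holstein-Friesian arrays and on all 4 Limousin arrays, the reverse of the order of its scaled signals. Before scaling, its signal was 15.4 to 19.7 units in Holstein-Friesian and 19.0 to 22.6 in Limousin. The scaled difference was -0.65 (SE 0.15, limma adjusted p = 0.0089), or 1.57-fold lower in Limousin (1.24 to 1.98), and without scaling it was 0.21. The lowest signal of a detected probe was itself higher after scaling in Holstein-Friesian (log2 4.33 to 4.91) than in Limousin (3.39 to 4.08). miR-877, a mirtron from outside the range, was detected on 2 and 3 arrays and not tested.

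Of the miRNAs of the range chosen for this work as fragments of small nuclear or small nucleolar RNAs, 1 was detected. The other miRNAs of the range were not searched for such an origin. miR-1246 (probe at chr1:116822083-116822097), which is known in human cells as a fragment of the U2 small nuclear RNA, was detected on all 8 arrays. Array by array, the scaled log2 signals were 11.46, 10.27, 10.98 and 11.18 in Holstein-Friesian and 10.34, 10.30, 10.31 and 10.15 in Limousin. Holstein-Friesian replicate 2 lay within the narrow Limousin range, and the other 3 lay above it. Breed means were 10.97 ± 0.51 and 10.27 ± 0.09 (SD, n = 4 each), a difference of -0.70 (SE 0.22, limma adjusted p = 0.0263) and 1.63-fold lower in Limousin (1.16 to 2.28). The call held without Holstein-Friesian replicate 2 and was lost on leaving out any of the other 7 arrays, with limma adjusted p of up to 0.0751; without scaling the difference was 0.15. miR-1248 and miR-1291, which lie in small nucleolar RNAs, and miR-664 from outside the range were detected on no array.

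miR-1247 lies at the end of the imprinted DLK1-DIO3 region, within the span of DIO3OS, and its 3p arm (probe at chr21:68149492-68149502) differed between breeds with limma adjusted p = 0.0080. The scaled log2 signals of miR-1247-3p were 9.72, 7.79, 8.85 and 8.61 in Holstein-Friesian and 6.86, 7.61, 7.18 and 7.35 in Limousin. The breeds did not overlap, although Holstein-Friesian replicates 1 and 2 differed from each other by more than the breed means did. These means were 8.74 ± 0.79 and 7.25 ± 0.32 (SD, n = 4 each), a difference of -1.49 (SE 0.34) and 2.82-fold lower in Limousin (1.67 to 4.76). It passed without each array in turn. Without scaling it was -0.64 and no longer passed (limma adjusted p = 0.0603).

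miR-1434-3p, within EEF2, the translation elongation factor 2 gene, had the smallest p of the range with the percentile of the detected probes. The array annotation gives no single place for its probes. Its scaled log2 signals were 10.68, 10.51, 10.17 and 10.37 in Holstein-Friesian and 9.09, 8.58, 9.30 and 8.93 in Limousin. All 4 Holstein-Friesian arrays lay above all 4 Limousin arrays, with means of 10.43 ± 0.22 and 8.97 ± 0.30 (SD, n = 4 each). The difference was -1.46 (SE 0.17, limma adjusted p = 5.4e-04), 2.75-fold lower in Limousin (2.11 to 3.57), and it passed without each array in turn. The 18-base probe also separated the breeds before any scaling, with 1075, 845, 1122 and 850 intensity units in Holstein-Friesian and 665, 628, 617 and 630 in Limousin. It was the only one of the 15 whose unscaled signals were lower in Limousin without overlap, although the unscaled difference of -0.60 did not pass (limma adjusted p = 0.0538). Its probe is 44.4% GC, at the low end of the 9 that passed.

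miR-1584-5p, within TAGLN2, which encodes the actin-binding transgelin-2, had a wide Holstein-Friesian spread. On the 8 arrays it had scaled log2 signals of 12.78, 10.90, 12.08 and 11.77 in Holstein-Friesian and 10.54, 10.68, 10.68 and 11.01 in Limousin. Holstein-Friesian replicate 2 lay below Limousin replicate 4, and the other 3 Holstein-Friesian arrays lay above all Limousin arrays. Breed means were 11.88 ± 0.78 and 10.73 ± 0.20 (SD, n = 4 each), a difference of -1.15 (SE 0.32, limma adjusted p = 0.0183) and 2.22-fold lower in Limousin (1.35 to 3.65). It passed without each array in turn, and without scaling the difference was -0.30 (limma adjusted p = 0.411).

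miR-1343-5p, within PDHX, which encodes a part of the pyruvate dehydrogenase complex, did not pass. Scaled log2 signals were 7.75, 7.59, 7.63 and 7.86 in Holstein-Friesian and 7.32, 7.57, 7.77 and 7.54 in Limousin, and these overlapped. The difference was -0.16 (95% confidence interval -0.44 to 0.12, limma adjusted p = 0.354), and it changed sign without scaling, to 0.70 (limma adjusted p = 0.0282).

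Of the remaining tested miRNAs, miR-1835, miR-1249 and miR-1777b passed. miR-1835 (probe at chr5:76049724-76049736), within RAC2, had scaled log2 signals of 8.56, 6.98, 7.91 and 7.85 in Holstein-Friesian and 6.68, 6.88, 6.97 and 7.06 in Limousin. Again Holstein-Friesian replicate 2 alone lay within the Limousin range. Breed means were 7.82 ± 0.65 and 6.90 ± 0.16 (SD, n = 4 each), a difference of -0.92 (SE 0.27, limma adjusted p = 0.0219) and 1.90-fold lower in Limousin (1.25 to 2.89). Leaving out Holstein-Friesian replicate 3 or 4 or Limousin replicate 1 or 2 ended the call (limma adjusted p up to 0.0613), and without scaling the difference was -0.07. Among the leukocyte markers, miR-142-5p and miR-155 were higher in Limousin, miR-223 and miR-150 did not pass and miR-142-3p was detected on no array. The log2 of their summed scaled signals was 10 to 10.6 in Holstein-Friesian and 10.5 to 10.9 in Limousin. The part of leukocyte content in the value of miR-1835 was not tested.

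miR-1249 (probe at chr5:116348325-116348337), within KIAA0930, was detected on Holstein-Friesian replicates 1 and 3 and on all 4 Limousin arrays. The 14-base probe, whose signals are given here, was itself detected on 3 Limousin arrays, and the 15-base probe on all 4. Array by array, the scaled log2 signals were 4.97, 4.16, 4.92 and 4.63 in Holstein-Friesian and 4.03, 4.06, 4.17 and 4.11 in Limousin. As before, Holstein-Friesian replicate 2 alone lay within the Limousin range. The difference of -0.58 (SE 0.17, limma adjusted p = 0.0224), 1.49-fold lower in Limousin (1.14 to 1.94), lost its call on leaving out any array but Holstein-Friesian replicate 2 or Limousin replicate 3 (limma adjusted p up to 0.0619). Before scaling, its signal ran from 10.4 to 29.6 units in Holstein-Friesian and from 17.7 to 27.3 in Limousin, and that difference was 0.28.

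miR-1777b (probe at chr7:63524577-63524586) lies within PDGFRB, which encodes a growth factor receptor of stromal cells. Its scaled log2 signals were 13.56, 12.64, 12.96 and 13.31 in Holstein-Friesian and 12.07, 12.73, 12.44 and 12.67 in Limousin. Holstein-Friesian replicate 2 lay between Limousin arrays and the other 3 above them. The difference was -0.64 (SE 0.21, limma adjusted p = 0.0345), 1.56-fold lower in Limousin (1.12 to 2.17), and 0.21 without scaling. The call was lost on leaving out any array but Holstein-Friesian replicate 2 or Limousin replicate 2 (limma adjusted p up to 0.102), and with the replicate number as a block (limma adjusted p = 0.0619). The stromal markers miR-199a-3p and miR-199a-5p were higher in Limousin and miR-214 did not pass. The log2 of their summed scaled signals was 12.1 to 12.2 in Holstein-Friesian and 12.4 to 12.7 in Limousin. The part of these markers in the value of miR-1777b was not tested.

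miR-1777a (probe at chr6:107199026-107199034), whose probe is nested in that of miR-1777b, missed the threshold at a similar difference. On the 8 arrays it had scaled log2 signals of 12.90, 12.18, 12.46 and 12.98 in Holstein-Friesian and 11.43, 12.46, 11.89 and 12.25 in Limousin, which overlap. The difference was -0.62 (SE 0.24, limma adjusted p = 0.0637), and it was past the threshold without replicate 2 of either breed. Its sign turned without scaling, to 0.23, and after correction for probe GC content and length, to 0.24.

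miR-1260b (probe at chr15:14156957-14156969), within MAML2, a coactivator of Notch signalling, had the widest range between Holstein-Friesian arrays after miR-1247-3p, miR-1584-5p and miR-1835. Scaled log2 signals were 16.33, 17.65, 16.24 and 17.12 in Holstein-Friesian and 16.11, 16.18, 16.51 and 16.37 in Limousin. Here Holstein-Friesian replicate 2 was the highest array, whereas replicates 1 and 3 lay among the Limousin arrays. That gave a difference of -0.54 (SE 0.28, 95% confidence interval -1.17 to 0.09, limma adjusted p = 0.153). It was 0.31 without scaling. Quantile scaling left no difference, but it gives a probe that holds the same rank on every array the same value everywhere. That result is therefore not a measured lack of difference. Before scaling, its signals of 53990 to 119528 units in Holstein-Friesian and 86892 to 121532 in Limousin were below saturation.

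miR-1271 (probe at chr7:39194966-39194983), within ARL10, shares its seed with miR-96. Array by array, the scaled log2 signals were 5.33, 5.36, 5.50 and 5.26 in Holstein-Friesian and 5.33, 5.26, 5.31 and 5.54 in Limousin. The breeds overlapped fully, with means of 5.36 ± 0.10 and 5.36 ± 0.12 (SD, n = 4 each) and a 95% confidence interval of -0.25 to 0.25 for the log2 difference (limma adjusted p = 0.994). That interval holds for this scaling only: the difference was 0.85 without scaling (limma adjusted p = 0.0082) and 0.33 with the percentile over all probes (limma adjusted p = 0.0451). Neither miR-96 nor miR-182 passed: the difference was 0.32 for miR-96 (limma adjusted p = 0.112) and 0.09 for miR-182 (limma adjusted p = 0.617).

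The array carries a current and an older entry of miR-1839, whose longest probes are shown because they share most of their bases, in capitals, and yet gave opposite detection.
miR-1839: aaCAAGACCTGTTCTATCT
miR-1839_v18.0: CAAGACCTGTTCTATCTac
Both are 19 bases long and share 17. The current probe starts with 2 more bases, which pair with the end of a longer 3′ tail of the miRNA, and the older probe reaches 2 bases further inward. The annotation places the current probe at chr14:1883858-1883875 and the older one at chr21:22773196-22773213. The current entry was detected on no array and the older one on all 8. The older entry's scaled log2 signals were 7.00, 6.48, 6.90 and 6.76 in Holstein-Friesian and 6.78, 6.77, 6.54 and 6.75 in Limousin, and these overlapped. The difference was -0.07 (95% confidence interval -0.37 to 0.23, limma adjusted p = 0.681), and its 3 probes differed in direction, from -0.07 to 0.17.

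miR-1940 (probe at chr3:14896541-14896557) was the one tested miRNA of the range with a higher Limousin mean. It was detected on Holstein-Friesian replicates 3 and 4 and on all 4 Limousin arrays, so it entered the test through Limousin alone. A call of miR-1940 as higher in Limousin is therefore no support for a difference. Its scaled log2 signals were 4.65, 4.03, 4.58 and 4.83 in Holstein-Friesian and 4.84, 5.12, 4.79 and 4.56 in Limousin, which overlap. The difference was 0.30 (SE 0.19, limma adjusted p = 0.223), and its shorter probe went the other way at -0.18. The sign depended on the processing: the difference was 0.63 with quantile scaling (limma adjusted p = 0.0353) and -0.47 with the normexp background (limma adjusted p = 0.0089). miR-1388-3p (probe at chr13:54375992-54376004), detected on Limousin replicate 2 alone, was not tested; its scaled log2 values were 3.77 to 4.64 in Holstein-Friesian and 3.50 to 3.78 in Limousin.

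The scaling decides the direction of a large share of these results. Limousin arrays were brighter, and without scaling the median difference of all 270 was 0.78, with 173 higher and 2 lower in Limousin, against 37 and 76 with scaling. The 15 had a median of 0.21 without scaling. Of the 9 that passed, 4 then stayed lower in Limousin without a call (miR-1247-3p, miR-1434-3p, miR-1584-5p and miR-1835) and 5 were higher without a call. miR-1271, miR-1343-5p, miR-1839_v18.0 and miR-1940 passed as higher. The call of miR-1940 is no support, since it entered the test only through its detection on all 4 Limousin arrays. With the 75th percentile over all probes, 104 of the 270 were higher and 30 lower, and 2 of the 15 were higher and 4 lower; with quantile scaling these were 55 and 43, and 1 and 4. All 9 called with the percentile of the detected probes kept their lower Limousin mean under those last settings. The median difference of the 270 was then 0.26 and 0.09.

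Breed differences over the array went with probe base composition. Across the 270 tested miRNAs, which share arrays and are not independent, Spearman's rank correlation between the log2 difference and probe GC content was -0.64, and with probe length 0.66. Across the 15 it was -0.26 and 0.30. The 9 that passed had a median GC content of 72.7% and length of 12 bases, against 55.8% and 16 bases for the 6 that did not, and 50% and 17 bases for all 270. With each array corrected for probe GC content and length, the median of the 15 went from -0.64 to -0.25, and 7 of the 9 kept a lower Limousin mean. Of the 9, miR-1434-3p (difference -1.61, limma adjusted p = 2.3e-04) and miR-1247-3p (-0.92, limma adjusted p = 0.0241) still passed. The differences of the other 7 ran from -0.63 for miR-1246 (limma adjusted p = 0.0549) to 0.12 for miR-1777b, and miR-1343-5p passed as higher in Limousin at 0.61 (limma adjusted p = 0.0256). miR-1224 went from -0.80 to -0.14 (limma adjusted p = 0.342) and miR-1225-3p from -0.65 to 0.08.

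**Figure D4:**
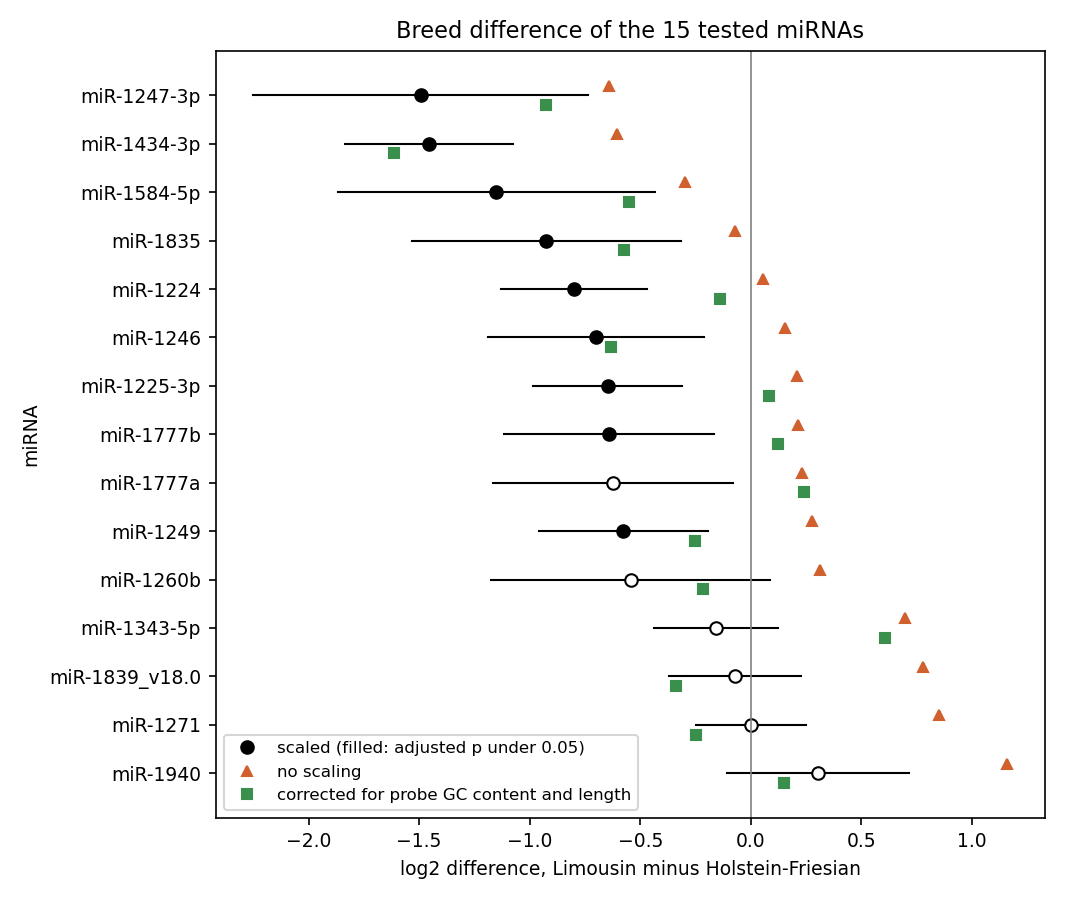
Log2 difference (Limousin minus Holstein-Friesian) of the 15 tested miRNAs. Circles with 95% confidence intervals are scaled signals, filled where the limma adjusted p is under 0.05; triangles are without scaling and squares after correction for probe GC content and length. The circles of the 9 that passed all lie left of 0, whereas 4 of their triangles and 7 of their squares do.

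Pairs of probes of one miRNA gave the same direction for 13 of the 15 (all but miR-1839_v18.0 and miR-1940), and every probe was detected on all 8 arrays for 10. Since such probes overlap in sequence, they are not independent measurements. The 10-base probe of miR-1225-3p was detected on no array, whereas its 11-base probe was detected on 6. The 18-base probe of miR-1271 was detected on 1 Holstein-Friesian and 4 Limousin arrays, and the 19-base probe on all 8.

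Holstein-Friesian arrays varied more than Limousin arrays. The median SD of the 15 was 0.37 in Holstein-Friesian (0.10 to 0.79) and 0.20 in Limousin (0.06 to 0.45), and over all 270 it was 0.25 and 0.15. The Holstein-Friesian SD was the larger one for 10 of the 15 and 198 of the 270. Replicate 2 was the lowest Holstein-Friesian array for 10 of the 15 (39.3% of the 270), and replicate 1 the highest for 10 (36.7%). In Limousin, replicate 1 was the lowest for 8 of the 15 (26.7%). No test was made of these shares. All 5 called miRNAs whose breeds overlapped (miR-1246, miR-1249, miR-1584-5p, miR-1777b and miR-1835) did so through Holstein-Friesian replicate 2. The erythroid marker miR-451 was highest on that array, at a scaled log2 signal of 7.07 against 4.85 to 5.53 on the other 3 Holstein-Friesian arrays. The other erythroid marker, miR-486, was detected nowhere. Other marker types also stood apart there. Among the Holstein-Friesian arrays, the epithelial miR-200a, miR-141 and miR-429 were highest on replicate 2. The epithelial miR-200b, miR-200c and miR-205, the leukocyte miR-223, miR-150 and miR-155 and the stromal miR-214 were lowest on it. The part of any cell type in these values was not tested. Without replicate 2, 10 of the 15 passed, all lower in Limousin. Counts fell to 5 without Holstein-Friesian replicate 3 or 4 or Limousin replicate 1, where 101, 73 and 71 of the 270 passed against 113.

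**Figure D5:**
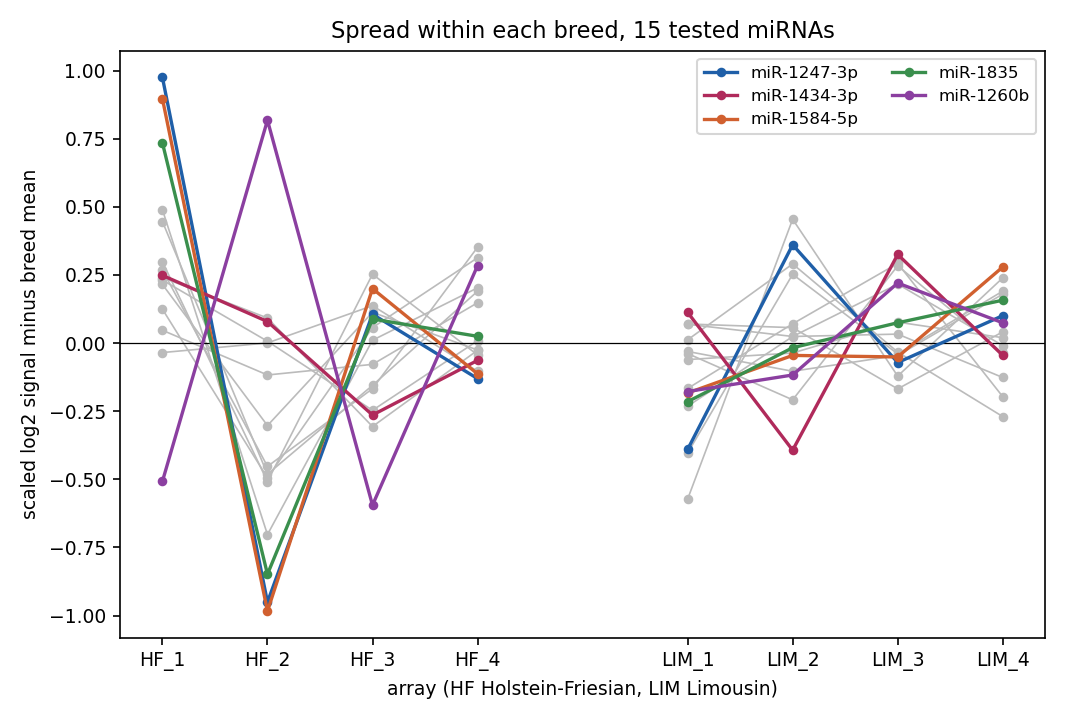
Scaled log2 signal minus the mean of the breed for the 15 tested miRNAs on each array; a line joins the values of 1 miRNA and implies no order of the arrays. Holstein-Friesian replicate 2 is low for miR-1247-3p, miR-1584-5p and miR-1835 and high for miR-1260b, and the Limousin arrays scatter less.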

How the data were processed

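Agilent Feature Extraction 10.10.1.1 wrote the scanner files and annotated them on UMD 3.1, per the file headers. The deposited spot intensity had a spatially fitted background removed by that software and can be negative. The deposited flags of each spot (well above background, outlier) are yes or no values. The deposited value table holds log2 values, read from the values as the log2 of Agilent's total signal of a miRNA less a constant for its array (largest deviation 9.7e-06, column medians -9.79 to -8.53). It served as an alternative.

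Control and outlier spots were dropped, and the remaining 14 to 30 spots of a probe were averaged. Each array was scaled by its 75th percentile over the probes detected on every array, a floor of 1 was set, and log2 was taken. The 270 miRNAs were fitted in R 4.3.3 by limma 3.58.1 (lmFit, eBayes) on breed alone, and p-values were adjusted over all 270 after Benjamini and Hochberg. The range, the marker lists and the related miRNAs were chosen with earlier results of these data known. Every miRNA of the range detected on at least 1 array is named with its values. Alternatives covered scaling, background, probe summary, filter, floor, the deposited table, a replicate block, GC content with length, and each array left out. The fit was tested on simulated data. The number of arrays limits precision. Mature miRNA sequences were not used here.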

Additional observations from a re-analysis of the deposited data

Results flagged for a closer look

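Of 32 sets of 4 arrays checked (each tested miRNA and the number detected, by breed), 2 held an array far from the other 3. For continuous values chance gives about 1 in 20. The scaled log2 signal of miR-1839_v18.0 on Limousin replicate 3 was 6.54, against 6.75 for the nearest other Limousin array, a gap of 0.879 of the range of the 4. Limousin replicate 2 detected 16 miRNAs of the range and the other 3 Limousin arrays 15 each, and the additional miRNA is miR-1388-3p. Beside 3 equal counts any other count is flagged, so the rate of 1 in 20 does not apply to this set.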

How the results depend on the processing

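Against 9 of the 15 called, the count was 5 with quantile scaling, 4 without scaling (all higher in Limousin) and 3 with no detection filter. It was 3 in the deposited table, 3 after GC and length correction and 2 after that correction with the replicate block. With normexp it was 13, and 13 with no background correction, all lower in Limousin. On leaving out each array it ran from 5 to 10. Over all tested miRNAs, 113 became 175 without scaling, 172 with normexp, 170 with no background correction, 61 with GC and length correction and the block, and 71 to 142 on leaving out each array. The replicate block alone gave 8 of 15 and 84 of 270 and ended 1 call, miR-1777b. Same-numbered arrays correlated in their deviations at -0.31, -0.25, -0.45 and 0.32, without a common sign. These values cannot decide whether the numbers pair the animals. Without scaling, the log2 difference reversed for miR-1224 (0.053), miR-1225-3p (0.21), miR-1246 (0.15), miR-1249 (0.28), miR-1260b (0.31), miR-1271 (0.85), miR-1343-5p (0.70), miR-1777a (0.23), miR-1777b (0.21) and miR-1839_v18.0 (0.78); the cause was not tested. With the percentile over all probes it also reversed for miR-1271 (0.33), miR-1343-5p (0.17) and miR-1839_v18.0 (0.26), and with quantile scaling for miR-1271 (0.26) and miR-1839_v18.0 (0.15). In the deposited table it did so for miR-1271 (0.27), miR-1343-5p (0.11) and miR-1839_v18.0 (0.26), and with the mean of the probes for miR-1839_v18.0 (0.045). With GC and length correction, alone or with the block, it reversed for miR-1225-3p (0.084), miR-1343-5p (0.61), miR-1777a (0.24) and miR-1777b (0.12). On leaving out each array, the sign changed for miR-1271 only, which ran from -0.06 to 0.04. For miR-1940 it was -0.47 with normexp and -0.42 with no background correction. Counting any spot above background, the difference in miRNAs detected per array was 5.5; on leaving out each array it ran from 1.25 to 2.25. The median Limousin SD was 0.31 without scaling, against 0.20. Signals near background limit miR-1225-3p, miR-1249, miR-1388-3p and miR-1940, which are not detected on all arrays.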

Other observations

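The authors' deposited table marks more miRNAs of the range as detected than the rule of over 50% of spots. In the authors' deposited table, miR-1225-3p and miR-1249 have a signal on all 4 Holstein-Friesian arrays and miR-1940 on 3, where that rule gave 2 each. miR-1388-3p has one on 2 Holstein-Friesian and 4 Limousin arrays of the authors' deposited table, against 0 and 1. miR-1388-5p and miR-1300b_v13.0, detected nowhere by the rule, each have a signal on 1 Limousin array of the authors' deposited table.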
